A study of Homo sapiens with 8 samples.

Results

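DNA methylation in human cells is set, copied and removed by a small group of enzymes and their helpers, and 10 of these genes are described here: the methyltransferases DNMT1, DNMT3A and DNMT3B, the dioxygenases TET1, TET2 and TET3, and the factors UHRF1, HELLS, KDM2B and TDG. They are 10 of the 19775 genes that have a probe set of their own on the expression array used, and they were chosen by name as the writers, copiers and erasers of the mark. A probe set is a group of short probes read as 1 value, and 22 of the 54675 probe sets named one of these genes and no other gene. The main value of a gene is its probe set of highest average signal, and its other probe sets are set beside it. All 10 genes were bright enough to be tested, as were 18 of their 22 probe sets.

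The series addresses the effect of ethanol on stem cells of the human embryo, both as undifferentiated cells and once differentiated. Total RNA was read on 8 arrays, with 2 arrays in each of 4 groups: embryoid bodies with 20 mM ethanol for 24 h, embryoid bodies with 0 mM, undifferentiated cells with 20 mM for 24 h, and undifferentiated cells with 0 mM. Embryoid bodies are aggregates of stem cells that differentiate into many cell types, and the labels give all cells as H9, an established human embryonic stem cell line, grown in mTeSR medium, with no genetic change named. The labels call the 2 arrays of a group duplicates without naming separate cultures, so each p-value measures the spread between these arrays only.

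Transcripts whose presence depends on the cell line disagreed with the labelled line on 4 of the 8 arrays, which were all of 1 stage. Stage and line can therefore not be told apart in any comparison between the stages, whereas the comparisons with and without ethanol lie within a stage. The listed stage markers mostly ran with the stage labels, but both lists were chosen with earlier results of these data known. They are therefore no independent check of the labels. Of 18 tested markers of embryonic germ layers, 16 rose and 1 fell in embryoid bodies with 20 mM ethanol and 16 rose without it. Of 11 pluripotency genes, 10 fell with ethanol and 8 without. Between the stages, 29.2% of all tested genes rose and 27.1% fell with 20 mM, and 28% rose and 24.7% fell with 0 mM. Correlations over the main probe sets of all tested genes were 0.981 to 0.988 between replicates, against 0.872 to 0.894 across the stages.

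Cytosine methylation at CpG, a cytosine followed by a guanine, is written on bare DNA by DNMT3A and DNMT3B. After replication DNMT1 copies it to the new strand, guided by UHRF1, which binds CpG methylated on one strand only. HELLS, which opens compact chromatin, helps in this copying. TET enzymes oxidise methylcytosine, and the glycosylase TDG cuts out the most oxidised forms so that repair can restore cytosine. KDM2B binds unmethylated CpG islands and brings a variant polycomb complex there. In human embryonic stem cells DNMT3B and TET1 are known as abundant transcripts that mark the undifferentiated state.

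Between the stages, TET2, UHRF1, HELLS and TET1 passed the test at both doses, the first pair higher and the second pair lower in embryoid bodies. The promoters of these 4 genes are shown because they are themselves CpG-bearing DNA of the kind these proteins act on. Each is the RefSeq GRCh38.p14 window of 250 bases before the most upstream listed start, on the plus strand, with every CpG in capitals. They lie at chr4:105145625-105145874 for TET2, chr19:4909251-4909500 for UHRF1, chr10:94545538-94545787 for HELLS and chr10:68560087-68560336 for TET1.
TET2: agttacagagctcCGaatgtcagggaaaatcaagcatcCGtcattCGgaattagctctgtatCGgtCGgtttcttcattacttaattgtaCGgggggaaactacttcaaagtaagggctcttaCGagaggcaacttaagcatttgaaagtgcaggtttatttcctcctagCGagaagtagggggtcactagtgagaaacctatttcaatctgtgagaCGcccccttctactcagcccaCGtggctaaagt
UHRF1: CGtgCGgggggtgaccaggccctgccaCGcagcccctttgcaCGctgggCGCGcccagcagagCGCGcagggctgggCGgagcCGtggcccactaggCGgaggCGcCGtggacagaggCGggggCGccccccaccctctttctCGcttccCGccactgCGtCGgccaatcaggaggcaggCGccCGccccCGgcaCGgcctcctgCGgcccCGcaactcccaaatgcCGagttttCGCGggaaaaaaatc
HELLS: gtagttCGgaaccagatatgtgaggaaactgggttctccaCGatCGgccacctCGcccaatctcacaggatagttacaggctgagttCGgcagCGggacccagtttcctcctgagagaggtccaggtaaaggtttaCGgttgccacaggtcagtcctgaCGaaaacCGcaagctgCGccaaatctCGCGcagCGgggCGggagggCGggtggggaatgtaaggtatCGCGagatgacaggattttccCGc
TET1: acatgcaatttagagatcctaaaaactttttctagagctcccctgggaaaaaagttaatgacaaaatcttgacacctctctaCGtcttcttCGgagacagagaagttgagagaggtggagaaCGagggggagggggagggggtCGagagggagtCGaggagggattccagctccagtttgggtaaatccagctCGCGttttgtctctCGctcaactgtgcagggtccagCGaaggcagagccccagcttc

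These windows hold 10 CpG for TET2, 28 for UHRF1, 18 for HELLS and 9 for TET1, against a median of 11 over the 35116 windows of the table. TET2 has a second listed start whose window holds 34 CpG, UHRF1 has 2 more with 32 and 41, and TET1 has 2 more with 4 and 11. All 10 genes matched the table, with 24 windows in all, and the fewest CpG were in the only listed window of DNMT3B, with 3. Starts that are not listed were not examined, so this need not be the window of its main start. The 8-letter words GGCGGGAA and TTTGGCGC, of the kind bound by the E2F factors of the cell cycle, were searched on both strands. Either word occurred in 3.24% of all windows and in 2 of the 24 windows of these genes. UHRF1 carries the first, read as TTCCCGCC from 104 bases before the start, and HELLS the second, read as GCGCCAAA from 76 bases before it. A match describes the letters only, and neither methylation nor binding was measured in these samples.

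Signals are on the linear scale of the deposited values and cannot be compared between probe sets. Errors of changes are standard errors of limma's fit, and a gene is called where its Benjamini-Hochberg adjusted p over the 14072 tested genes is under 0.05. At 20 mM ethanol, 2 of the 10 genes were called higher and 4 lower in embryoid bodies than in undifferentiated cells, where 29.2% of all tested genes were called higher and 27.1% lower. At 0 mM, 2 were called higher and 2 lower, against 28% and 24.7% of all tested genes. With so many genes called, these counts do not set the 10 genes apart. Their median change was -0.18 at 20 mM and 0.03 at 0 mM, against 0.02 over all tested genes at both doses. In bulk RNA, fewer cells of a type and less RNA per cell cannot be told apart.

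**Figure D1:**
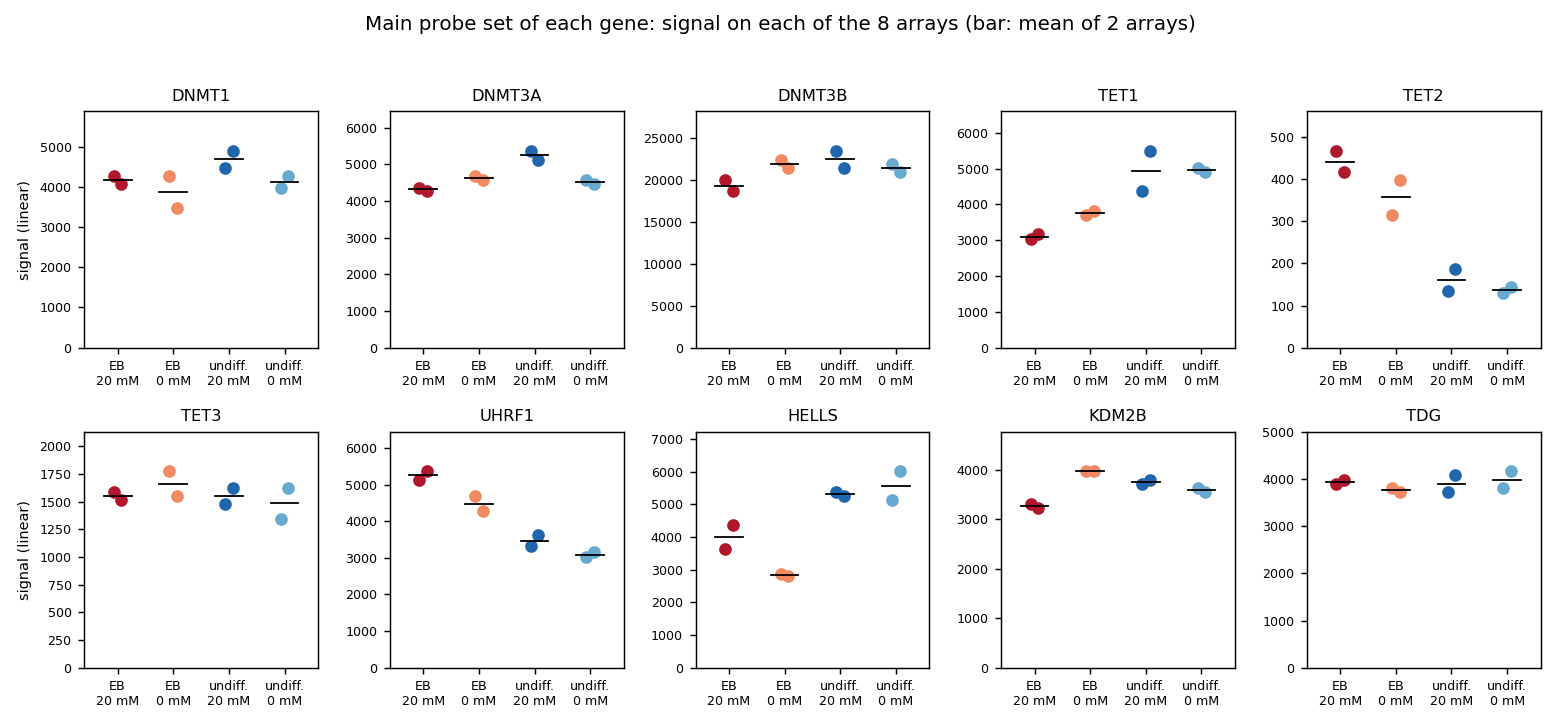
Signal on the linear scale (vertical axes, each from 0) of the main probe set of the 10 genes, for embryoid bodies (EB) with 20 and 0 mM ethanol and undifferentiated cells with 20 and 0 mM; points are single arrays and bars the mean of 2. TET2 and UHRF1 sat higher and HELLS and TET1 lower on all 4 embryoid body arrays than on all 4 undifferentiated arrays.

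Of the factors that copy methylation, UHRF1 rose and HELLS fell in embryoid bodies, while DNMT1 did not pass. UHRF1 read 5129 and 5370.3 in embryoid bodies with 20 mM ethanol, 4677 and 4266 in those with 0 mM, 3311 and 3631 in undifferentiated cells with 20 mM and 3020 and 3162 in those with 0 mM. The lowest embryoid body array was above the highest undifferentiated array. Within a dose, with 2 arrays per group, the stages did not overlap for 77.2% of all tested genes at 20 mM and 78.4% at 0 mM. The share of all tested genes whose stages did not overlap across both doses was not computed. UHRF1 was 1.51-fold higher at 20 mM (log2 change 0.60 ± 0.09, n = 2 arrays per group, limma adjusted p = 0.0022) and 1.45-fold higher at 0 mM (0.53 ± 0.09, adjusted p = 0.0040). The adjusted p stayed under 0.05 in 18 of 19 other ways of processing at each dose. Centring each array on its median, which lowers the median gene by 0.42 at 20 mM and 0.28 at 0 mM, left changes of 0.18 and 0.25 that did not pass. UHRF1 has 1 probe set of its own, so no other reading of it was at hand. The alternatives that choose or average probe sets therefore used the same UHRF1 values and could not check them.

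HELLS read 3631 and 4365 in embryoid bodies with 20 mM ethanol, 2884 and 2818 in those with 0 mM, 5370.3 and 5248 in undifferentiated cells with 20 mM and 5129 and 6026 in those with 0 mM. Every embryoid body array was below every undifferentiated array. The gene was 1.33-fold lower at 20 mM (-0.42 ± 0.12, adjusted p = 0.0291) and 1.95-fold lower at 0 mM (-0.96 ± 0.12, adjusted p = 0.0016). The drop at 20 mM lost its call when any one of 5 arrays was left out: either undifferentiated 20 mM array (-0.40 and -0.43), either 0 mM embryoid body array (-0.42 each), or replicate A of the 20 mM embryoid bodies (-0.28). It also ended after quantile normalisation (-0.27) and cyclic loess (-0.23). At 0 mM the call held without any single array.

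In a fit over the 30510 tested probe sets, 2 of the 18 tested sets of these genes were called higher in embryoid bodies and 5 lower at 20 mM, where 28% and 21.4% of all tested sets were. At 0 mM, 2 were called higher and 3 lower, against 25.9% and 19.4%.

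The other tested probe sets of HELLS also read lower in embryoid bodies, but by less at 0 mM. Probe set 223556_at read 2570.4 and 3236 with 20 mM and 2818 and 2818 with 0 mM in embryoid bodies, against 3388 and 3548 with 20 mM and 3548 and 3715 with 0 mM in undifferentiated cells. Its change was -0.27 ± 0.12 at 20 mM and -0.37 ± 0.12 at 0 mM, neither of them called over the 30510 tested probe sets (adjusted p = 0.128 and 0.058). Probe set 220085_at fell by 0.71 at 20 mM (adjusted p = 0.0061) and was at -0.38 at 0 mM (adjusted p = 0.0538), and 227349_at was at -0.28 and -0.25 without a call. So all 4 tested sets of HELLS were negative at both doses, and the size at 0 mM was -0.96 in the main set against -0.25 to -0.38 in the others. The fifth, 234040_at, was too dim to test and read the other way, at 66.1 to 83.2 on the embryoid body arrays and 32.4 to 58.9 on the undifferentiated arrays. With the mean of its probe sets the gene was at -0.20 at 20 mM and -0.28 at 0 mM and was called at neither dose.

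DNMT1, the methyltransferase that copies the mark, read 4266 and 4074 in embryoid bodies with 20 mM ethanol, 4266 and 3467 in those with 0 mM, 4467 and 4898 in undifferentiated cells with 20 mM and 3981 and 4266 in those with 0 mM. The 20 mM arrays did not overlap between the stages and the 0 mM arrays did. Its change was -0.17 at 20 mM (95% interval -0.46 to 0.13) and -0.10 at 0 mM (-0.39 to 0.19), with no call at either dose (adjusted p = 0.278 and 0.512). These intervals still hold falls of up to 0.46 and 0.39, so like levels were not shown. Without replicate B of the 0 mM embryoid bodies, the lowest array, the 0 mM value was 0.05.

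**Figure D2:**
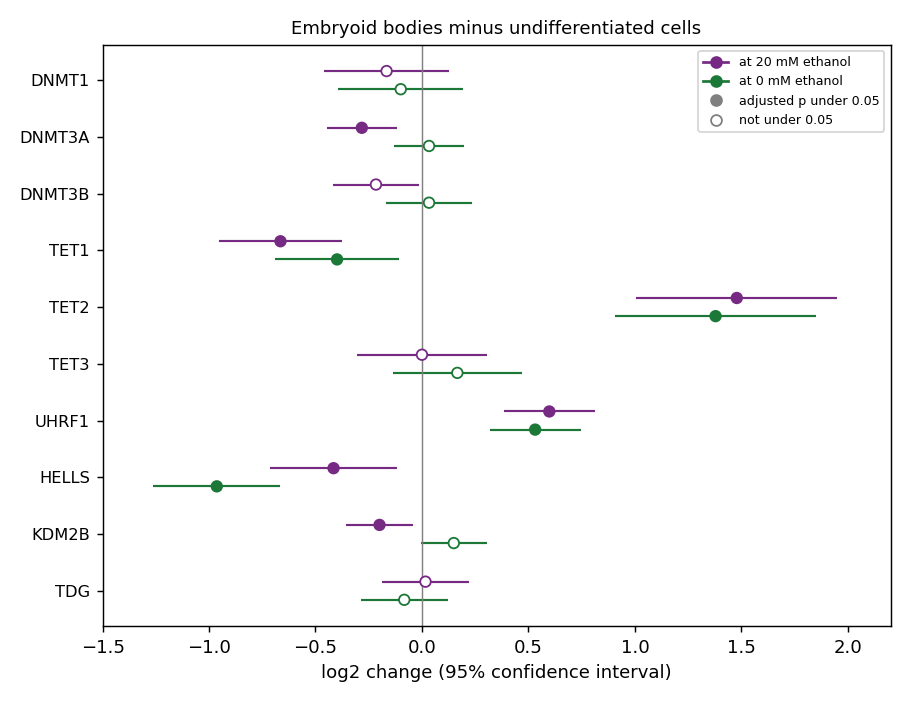
Log2 change of embryoid bodies minus undifferentiated cells (horizontal axis) for the main probe set of each gene at 20 mM and 0 mM ethanol; points are limma estimates from 2 arrays per group, lines 95% confidence intervals, and filled points an adjusted p under 0.05. TET2 and UHRF1 lay right of 0 and TET1 and HELLS left of 0 at both doses, and DNMT3A and KDM2B were called at 20 mM, with values of -0.28 and -0.20, but not at 0 mM.

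Of the methyltransferases that write new methylation, DNMT3A fell at 20 mM on its main probe set and DNMT3B passed at neither dose. DNMT3B read 19953 and 18621 in embryoid bodies with 20 mM ethanol, 22387 and 21380 in those with 0 mM, 23442 and 21380 in undifferentiated cells with 20 mM and 21878 and 20893 in those with 0 mM. The embryoid bodies with ethanol held the lowest values, below all other arrays, and the remaining groups overlapped. At 20 mM the change was -0.22 ± 0.08 (95% interval -0.42 to -0.01, adjusted p = 0.069), and at 0 mM it was 0.03 ± 0.08 (-0.17 to 0.24, adjusted p = 0.758). The sign and the call were not stable to scaling. At 20 mM the change was 0.042 after quantile normalisation and 0.17 after cyclic loess, neither called, and -0.63 after median centring (adjusted p = 0.0010). At 0 mM it was called in opposite directions, at 0.29 after cyclic loess (adjusted p = 0.0145) and -0.25 after median centring (adjusted p = 0.0419).

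DNMT3A read 4365 and 4266 in embryoid bodies with 20 mM ethanol, 4677 and 4571 in those with 0 mM, 5370.3 and 5129 in undifferentiated cells with 20 mM and 4571 and 4467 in those with 0 mM. The highest values were those of undifferentiated cells with ethanol, and the 0 mM groups overlapped. At 20 mM DNMT3A was 1.22-fold lower in embryoid bodies (-0.28 ± 0.07, adjusted p = 0.0135), and at 0 mM its change was 0.03 ± 0.07 (adjusted p = 0.698). The call at 20 mM was lost without replicate B of the 20 mM embryoid bodies (-0.27, adjusted p = 0.0655), after quantile normalisation (-0.14) and after cyclic loess (-0.084).

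A second DNMT3A probe set, 218457_s_at, fell at both doses. It read 1175 and 1148 in embryoid bodies with 20 mM ethanol and 1318 and 1230.3 in those with 0 mM, against 1995 and 1622 in undifferentiated cells with 20 mM and 1622 and 1949.8 in those with 0 mM. All embryoid body arrays were below all undifferentiated arrays, with changes of -0.63 ± 0.14 at 20 mM (adjusted p = 0.0138) and -0.48 ± 0.14 at 0 mM (adjusted p = 0.0367). The third set, 244428_at, was at -0.20 and -0.10 with no call. The probe sets of DNMT3A therefore differed on whether the 0 mM stages differ.

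Among the oxidising enzymes, TET2 rose and TET1 fell in embryoid bodies on their main probe sets, and TET3 did not pass. TET2 read 468 and 417 in embryoid bodies with 20 mM ethanol, 316 and 398 in those with 0 mM, 135 and 186 in undifferentiated cells with 20 mM and 129 and 145 in those with 0 mM. Even the lowest embryoid body array was well above the highest undifferentiated array. TET2 was 2.79-fold higher at 20 mM (1.48 ± 0.19, adjusted p = 0.0015) and 2.60-fold higher at 0 mM (1.38 ± 0.19, adjusted p = 0.0022). It passed in all 16 alternatives that tested it at each dose, with changes of 1.06 to 1.71 and 1.10 to 1.54. TET2 was left out of the test with a stricter signal filter, the mean of its probe sets and its set of highest SD, 1569385_s_at. Those alternatives therefore could not check the main probe set. Its other probe sets were too dim to test: 235461_at read 61.7 and 60.3 with 20 mM and 35.5 and 67.6 with 0 mM in embryoid bodies, against 16.6 and 26.9 with 20 mM and 15.8 and 2.69 with 0 mM in undifferentiated cells. That set was also higher on every embryoid body array than on every undifferentiated array, although below the array median throughout, while 1569385_s_at stayed between 0.912 and 22.9 with no order by stage.

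TET1, whose loss of expression accompanies differentiation in many stem cell systems, read 3020 and 3162 in embryoid bodies with 20 mM ethanol, 3715 and 3802 in those with 0 mM, 4365 and 5495 in undifferentiated cells with 20 mM and 5012 and 4898 in those with 0 mM. The stages did not overlap. It was 1.58-fold lower at 20 mM (-0.66 ± 0.12, adjusted p = 0.0047) and 1.32-fold lower at 0 mM (-0.40 ± 0.12, adjusted p = 0.0323). The 0 mM call ended without any single embryoid body array or 0 mM undifferentiated array, with changes of -0.42 to -0.38 and adjusted p of 0.0553 to 0.119, and the 20 mM call held without any single array. Quantile normalisation (-0.28) and cyclic loess (-0.29) ended the 0 mM call too. With the mean of its probe sets TET1 was at -0.050 at 20 mM (adjusted p = 0.861) and 0.11 at 0 mM (adjusted p = 0.692). TET1's other probe set, 214862_x_at, read the opposite way. It was at 776 and 891 in embryoid bodies with 20 mM ethanol and 933 and 851 in those with 0 mM, against 437 and 724 in undifferentiated cells with 20 mM and 457 and 741 in those with 0 mM. Its changes of 0.56 ± 0.31 at 20 mM and 0.61 ± 0.31 at 0 mM were not called (adjusted p = 0.184 and 0.16), and its undifferentiated replicates lay far apart. The suffix _x_at marks sets whose probes can also bind other transcripts.

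TET3 read 1585 and 1514 in embryoid bodies with 20 mM ethanol, 1778 and 1549 in those with 0 mM, 1479 and 1622 in undifferentiated cells with 20 mM and 1349 and 1622 in those with 0 mM. All groups overlapped. The change was 0.00 at 20 mM (95% interval -0.30 to 0.30) and 0.17 at 0 mM (-0.14 to 0.47), with no call. A dimmer TET3 set, 214754_at, read 112 and 112 in embryoid bodies with 20 mM and 120.2 and 105 in those with 0 mM, against 91.2 and 169.8 in undifferentiated cells with 20 mM and 69.2 and 47.9 in those with 0 mM. Its change at 0 mM was 0.96 ± 0.32 (adjusted p = 0.0535), and at 20 mM -0.15. The third set, 1554641_a_at, was too dim to test, at 3.63 to 26.9.

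TDG passed at neither dose, and KDM2B fell at 20 mM. The glycosylase TDG read 3890.5 and 3981 in embryoid bodies with 20 mM ethanol, 3802 and 3715 in those with 0 mM, 3715 and 4074 in undifferentiated cells with 20 mM and 3802 and 4169 in those with 0 mM. All groups lay within one narrow band, with changes of 0.02 at 20 mM (95% interval -0.19 to 0.22) and -0.08 at 0 mM (-0.29 to 0.12). Its second probe set, 203742_s_at, read 251 to 372 over the 8 arrays and was at 0.23 ± 0.21 at both doses (adjusted p = 0.398 and 0.404).

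KDM2B read 3311 and 3236 in embryoid bodies with 20 mM ethanol, 3981 and 3981 in those with 0 mM, 3715 and 3802 in undifferentiated cells with 20 mM and 3631 and 3548 in those with 0 mM. Embryoid bodies held both the lowest values, with ethanol, and the highest, without it. At 20 mM KDM2B was 1.15-fold lower (-0.20 ± 0.06, adjusted p = 0.0385), and at 0 mM its change was 0.15 ± 0.06 (adjusted p = 0.0945). The 20 mM call was lost without any single one of the 8 arrays (adjusted p = 0.0535 to 0.141) and held in 3 of 18 alternatives. At 0 mM, 3 of 18 alternatives called KDM2B higher: quantile normalisation (0.25, adjusted p = 0.0168), cyclic loess (0.25, adjusted p = 0.0185) and a trended and robust variance (adjusted p = 0.0444).

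**Figure D3:**
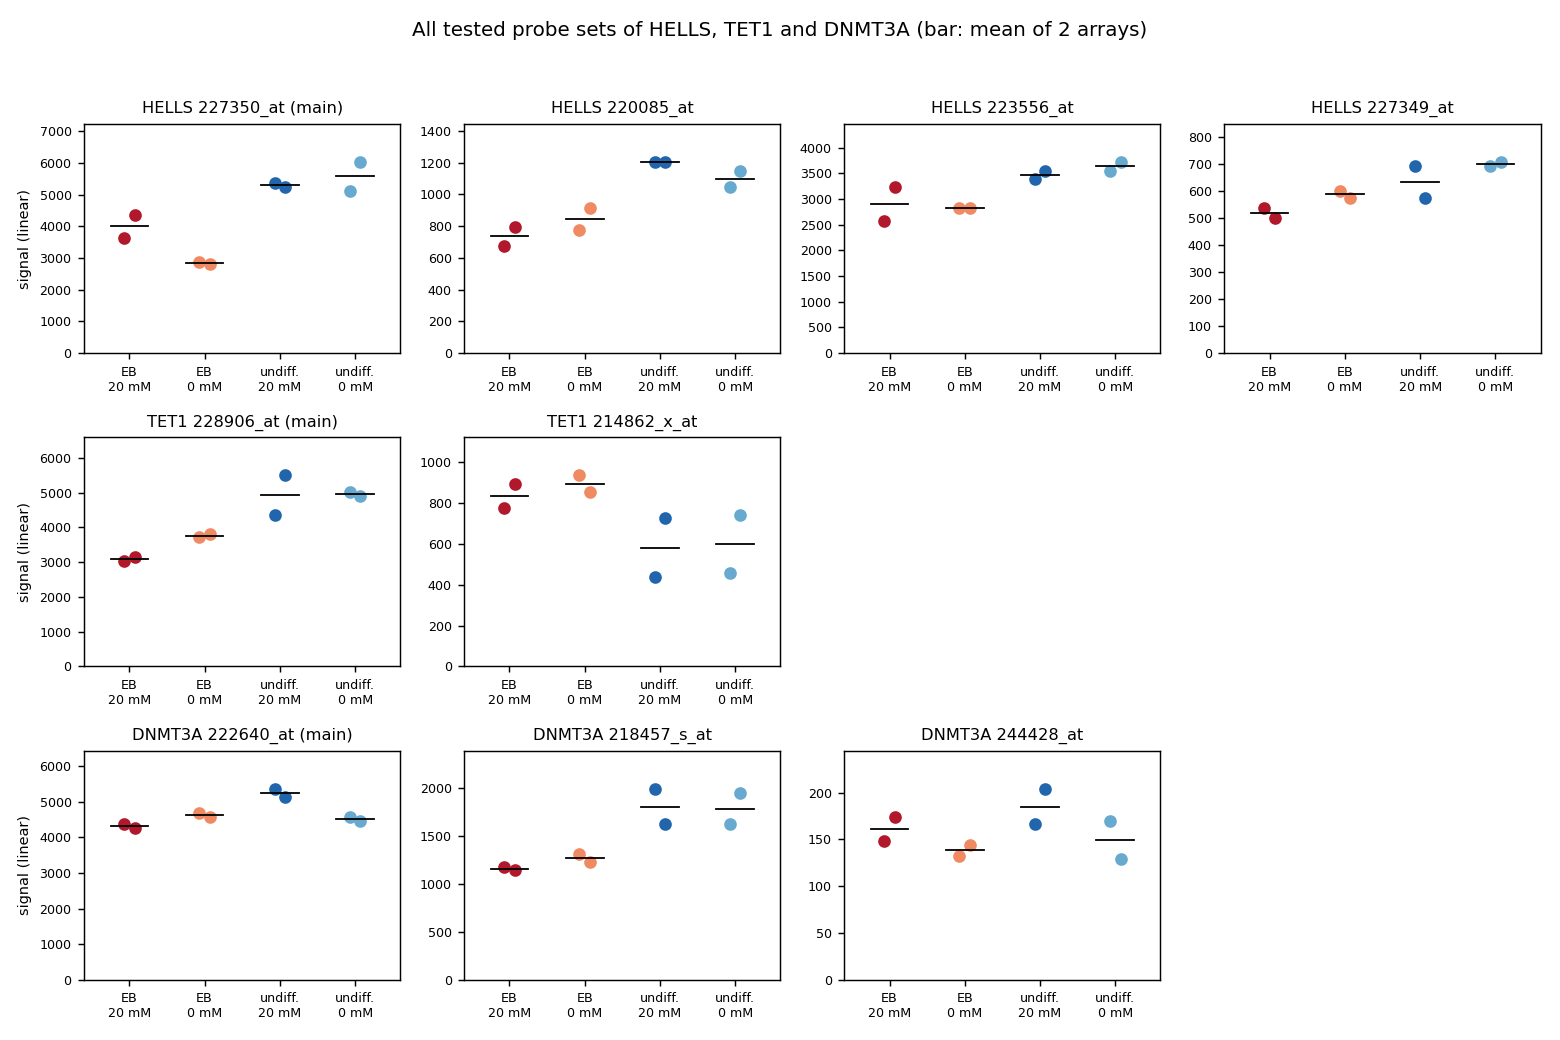
Signal on the linear scale (vertical axes, each from 0) of every tested probe set of HELLS, TET1 and DNMT3A in embryoid bodies (EB) and undifferentiated cells with 20 and 0 mM ethanol; points are single arrays and bars the mean of 2. The 4 HELLS sets were lower in embryoid bodies, the TET1 sets ran opposite ways, and DNMT3A 218457_s_at was lower on all 4 embryoid body arrays while the main set was so at 20 mM only.

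Stage changes of all tested genes ran with brightness. When all tested genes were ranked by mean signal, the median change of decile 10, the brightest, was -0.30 at 20 mM and -0.20 at 0 mM, and that of decile 9 was -0.23 and -0.15. DNMT3A, DNMT3B and HELLS stood in the brightest decile, and DNMT1, TET1, UHRF1, KDM2B and TDG in the next. Of decile 10, DNMT3A was at -0.28 and 0.03, DNMT3B at -0.22 and 0.03 and HELLS at -0.42 and -0.96 at the 2 doses. Of decile 9, UHRF1 was at 0.60 and 0.53, TET1 at -0.66 and -0.40, and KDM2B at -0.20 and 0.15. At 20 mM the values of DNMT3A, DNMT3B and KDM2B lay 0.017 to 0.083 above their decile's median, and at 0 mM 0.23 to 0.30 above it. TET2 stood in decile 3, whose median was 0.23 at 20 mM and 0.17 at 0 mM. The part of brightness in the changes was not tested.

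Other genes of the pathway were counted in 7 lists of 74 genes, of which 63 were tested. Their counts stand against the shares of all tested genes, 29.2% called higher and 27.1% lower at 20 mM, and 28% higher and 24.7% lower at 0 mM. Of 10 partners of maintenance methylation, 3 fell at 20 mM and 2 at 0 mM, near those shares, and none rose. TRIM28, a corepressor that guards methylation at imprinted sites, was at -0.51 at 20 mM and -0.33 at 0 mM. CDCA7, which activates HELLS, was at -0.28 at both doses. The replication clamp PCNA fell by 0.35 at 20 mM and was at -0.25 at 0 mM without a call. The list's median was -0.10 at 20 mM and -0.12 at 0 mM, against 0.02 over all tested genes.

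Of 4 tested partners and homologues of the writers, 3 fell at each dose. The chromatin ATPase MORC2 was at -0.85 at 20 mM and -0.73 at 0 mM. The tRNA methyltransferase TRDMT1, a homologue of the writers, was at -0.40 and -0.35, and QSER1, which protects developmental promoters from methylation, at -0.50 and -0.28. DNMT3L, the cofactor of the writers, was too dim to test. The list's median was -0.45 at 20 mM and -0.32 at 0 mM.

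Among 7 genes of families that include readers of methylated CpG, 2 rose and 1 fell at 20 mM, and 3 rose at 0 mM. MBD1 was at 0.80 at 20 mM and 0.83 at 0 mM, and ZBTB38 at 0.71 and 0.30, while MBD2 fell by 0.32 at 20 mM. Of 11 genes of base excision repair and the GADD45 group, 1 rose and 8 fell at 20 mM, and 2 rose and 5 fell at 0 mM. GADD45A rose by 0.93 and 1.16 on the log2 scale, and the uracil glycosylase UNG fell by 0.91 and 0.78. GADD45B (-1.26) and the glycosylase NEIL2 (-0.63) fell at 0 mM. At 20 mM, GADD45B averaged 124 in embryoid bodies against 251 in undifferentiated cells, and NEIL2 339 against 543. The medians were 0.25 and 0.20 for the reader families and -0.45 and -0.20 for repair.

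Of 6 partners of the TET enzymes and suppliers of their cofactor oxoglutarate, 2 rose and 2 fell at each dose. CXXC4, which binds TET2, was at 1.38 at 20 mM and 1.54 at 0 mM, and the glycosyltransferase OGT, a TET partner, at 0.85 and 0.95. The isocitrate dehydrogenases IDH1 (-0.66 and -0.71) and IDH2 (-0.27 and -0.35), which make oxoglutarate, fell. Of 10 genes of CXXC proteins and the variant polycomb complex of KDM2B, 5 rose and 1 fell at 20 mM, and 3 rose and 1 fell at 0 mM. YAF2 rose, at 1.51 and 1.59, and its paralogue RYBP fell, at -0.56 and -0.53. RING1, a ubiquitin ligase of the complex, was at 1.01 and 0.90.

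The methionine and folate cycle, which supplies the methyl donor, was split, with 3 of 15 genes higher and 6 lower at 20 mM, and 5 higher and 5 lower at 0 mM. The mitochondrial folate enzyme MTHFD2 was at -1.25 at 20 mM and -1.35 at 0 mM. CBS, which draws homocysteine away from the cycle, was at -1.38 and -1.48, and AHCY, which clears the product of methylation, was at -0.86 at 20 mM. At 0 mM, AHCY averaged 5888 in embryoid bodies against 9226 in undifferentiated cells. BHMT, which remethylates homocysteine with betaine, rose by 1.58 on the log2 scale at 0 mM. At 20 mM, BHMT averaged 119 against 101.

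DNA replication genes follow the share of cells in S phase, as UHRF1, HELLS and DNMT1 are known to. Of 20 tested, 16 fell at 20 mM, and 13 fell and 1 rose at 0 mM, with medians of -0.34 and -0.29. Over all tested genes, 27.1% fell at 20 mM, and 24.7% fell and 28% rose at 0 mM. GINS1 was at -0.81 and -0.60, and CDT1 fell by 1.43 at 0 mM. At 20 mM, CDT1 averaged 1496 in embryoid bodies against 2399 in undifferentiated cells. On the same arrays UHRF1 rose, HELLS fell and DNMT1 was not called. Whether the replication genes have a part in these values was not tested.

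**Figure D4:**
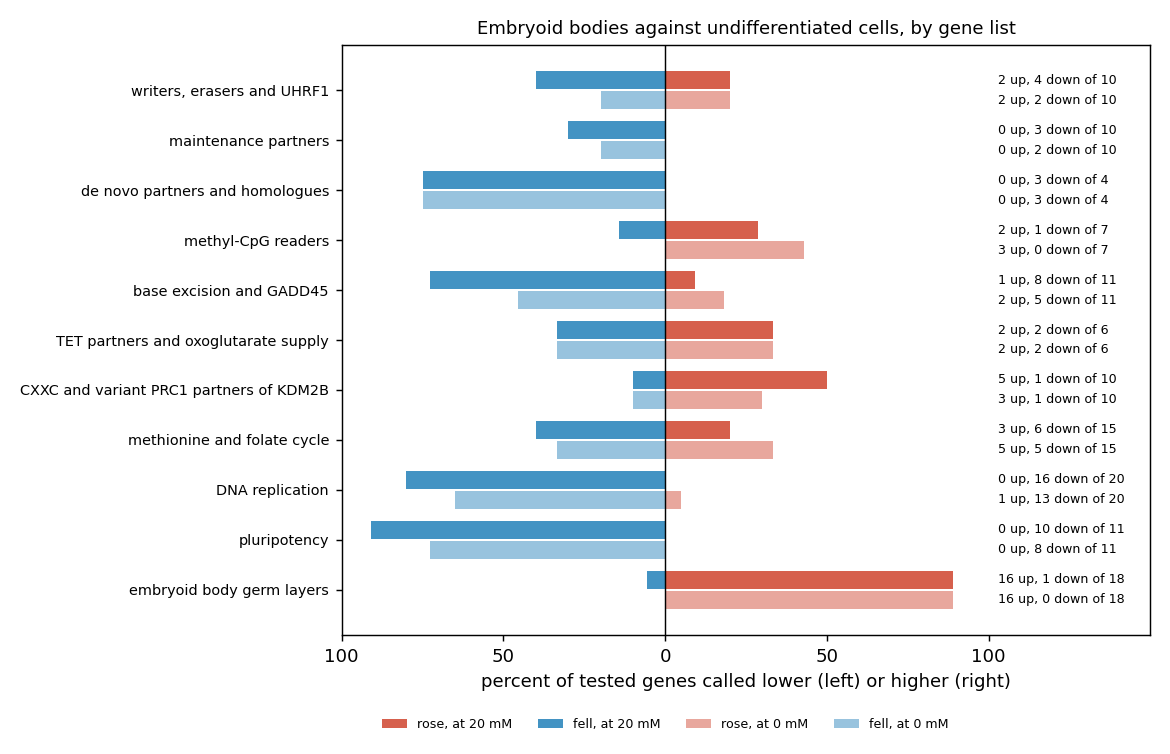
Percent of tested genes in each list called lower (left) or higher (right) in embryoid bodies than in undifferentiated cells, at 20 mM (dark) and 0 mM ethanol (pale), with counts at the right; a call is a limma adjusted p under 0.05. The 10 genes described here show calls both ways, replication and pluripotency genes mostly fell, and germ layer genes mostly rose.

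Ethanol moved none of the 10 genes past the threshold in embryoid bodies, where 0.0711% of all tested genes were called, or in undifferentiated cells, where 0.00711% were. With limma, 3 of the 10 had an unadjusted p under 0.05 in embryoid bodies, as did 22.3% of all tested genes, and 1 had one in undifferentiated cells, against 7.01%. The median change of the 10 genes was -0.02 in embryoid bodies and 0.07 in undifferentiated cells, against 0.02 over all tested genes in each. No gene of the other 10 lists was called with ethanol at either stage.

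In embryoid bodies the 3 genes were KDM2B, HELLS and UHRF1. KDM2B was 1.22-fold lower with ethanol, at 3311 and 3236 against 3981 and 3981 without it (-0.28 ± 0.06, 95% interval -0.44 to -0.13, adjusted p = 0.105). HELLS was 1.40-fold higher, at 3631 and 4365 with ethanol against 2884 and 2818 without it (0.48 ± 0.12, 0.18 to 0.78, adjusted p = 0.119). For both, the arrays with and without ethanol did not overlap, as held for 57.5% of all tested genes in embryoid bodies. A variance model with a trend and robust fitting called both (adjusted p = 0.0257 for KDM2B and 0.0264 for HELLS), among 959 genes. KDM2B was also called lower with a stricter signal filter (adjusted p = 0.0453), among 477 genes. Median centring called it lower too (-0.55, adjusted p = 0.0189), among 3880 genes.

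The other tested probe sets of HELLS did not share the higher reading with ethanol. Their changes in embryoid bodies were -0.20 ± 0.13 for 220085_at, 0.03 ± 0.12 for 223556_at and -0.18 ± 0.11 for 227349_at, none of them called, against 0.48 ± 0.13 for the main set in the same fit. With the mean of its probe sets the gene was at 0.01 (adjusted p = 0.967). KDM2B has 1 probe set of its own.

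UHRF1 was at 0.23 ± 0.09 with ethanol in embryoid bodies (95% interval 0.02 to 0.45, adjusted p = 0.199) and at 0.17 ± 0.09 in undifferentiated cells (-0.05 to 0.38, adjusted p = 0.787). Its arrays with ethanol were above those without it at both stages, as held for 29.4% of all tested genes in embryoid bodies and 15.4% in undifferentiated cells, but median centring turned the embryoid body value to -0.03. TET2 was at 0.32 ± 0.19 in embryoid bodies (-0.16 to 0.79) and 0.22 ± 0.19 in undifferentiated cells (-0.26 to 0.69). Rises of TET2 as large as 0.79 and 0.69 therefore remain within its intervals.

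Nor did TET1, DNMT3B, DNMT3A, TET3, DNMT1 or TDG have an unadjusted p under 0.05 in embryoid bodies. TET1 was at -0.28 ± 0.12 (95% interval -0.57 to 0.01) and DNMT3B at -0.18 ± 0.08 (-0.39 to 0.02). DNMT3A and TET3 were each at -0.10, DNMT1 at 0.12 (-0.18 to 0.41) and TDG at 0.07 (-0.14 to 0.27). For TET1, DNMT3B and DNMT3A all arrays with ethanol were below those without it, as held for 28.1% of all tested genes. Median centring, which called 3708 of all tested genes lower, also called TET1 (-0.55, adjusted p = 0.0395), DNMT3B (-0.45, 0.0200) and DNMT3A (-0.37, 0.0225) lower. For TDG they were above, as held for 29.4%, and for TET3 and DNMT1 they overlapped. In genes as bright as most of these, the median change with ethanol in embryoid bodies was -0.08 to -0.10.

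In undifferentiated cells the gene with an unadjusted p under 0.05 was DNMT3A, at 5370.3 and 5129 with ethanol against 4571 and 4467 without it. The groups did not overlap, as held for 27.5% of all tested genes in undifferentiated cells, and the change was 0.22 ± 0.07 (95% interval 0.05 to 0.38, adjusted p = 0.609). Its other probe sets were at 0.02 ± 0.14 and 0.32 ± 0.18. DNMT1 was at 0.18 ± 0.12 (-0.11 to 0.48), DNMT3B and KDM2B at 0.07, TET1 at -0.02, HELLS at -0.07 and TDG at -0.03. The dim TET3 set 214754_at was at 1.11 ± 0.32 (adjusted p = 0.573), with the 20 mM replicates far apart, whereas the main TET3 set was at 0.07.

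**Figure D5:**
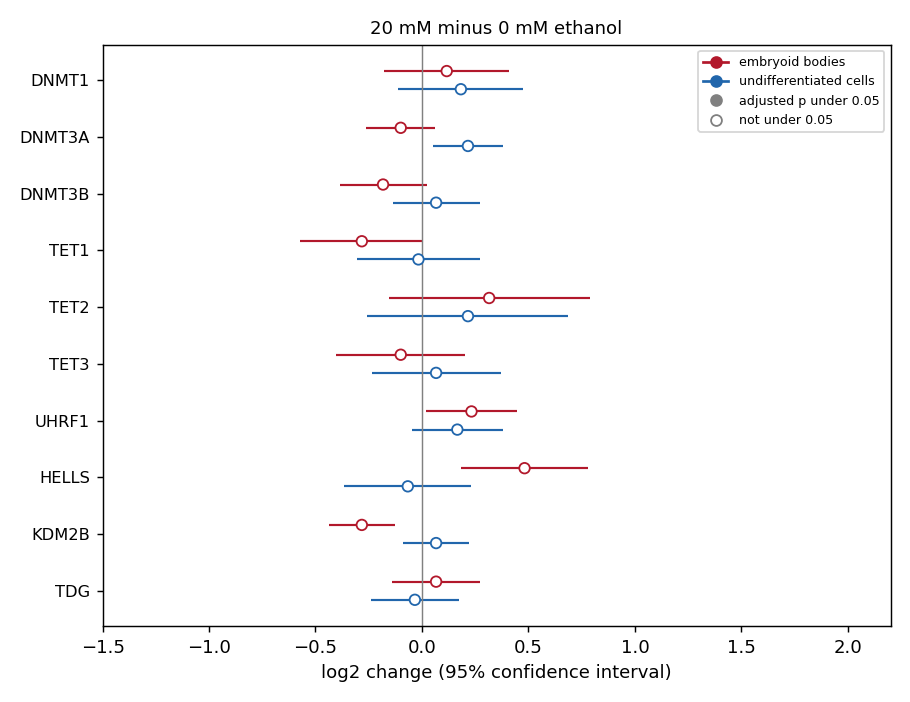
Log2 change of 20 mM minus 0 mM ethanol (horizontal axis) for the main probe set of each gene in embryoid bodies and undifferentiated cells; points are limma estimates from 2 arrays per group and lines 95% confidence intervals, on the scale of the plot of stage changes. All points are open, meaning no adjusted p under 0.05, and HELLS at 0.48 and KDM2B at -0.28 in embryoid bodies lie farthest from 0 relative to their intervals.

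The difference between the ethanol effects of the stages, embryoid bodies minus undifferentiated cells, was not called for any of the 10 genes, nor for any of the 14072 tested genes (0% called). An unadjusted p under 0.05 was found for 3 of the 10 and for 13.0% of all tested genes. They were HELLS at 0.55 ± 0.17 (adjusted p = 0.326), KDM2B at -0.35 ± 0.09 (adjusted p = 0.295) and DNMT3A at -0.32 ± 0.09 (adjusted p = 0.316). The same difference compares the stage changes at 20 and 0 mM, so the smaller stage drop of HELLS at 20 mM and the calls of DNMT3A and KDM2B at 20 mM but not at 0 mM are not shown to depend on the dose.

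Across the 8 arrays, the patterns most like that of DNMT3B were those of the ribosomal protein genes RPL19 (Pearson r 0.984), RPL30 (0.982) and RPS6 (0.981). RPL19 averaged 19498 in embryoid bodies with 20 mM ethanol, 22131 in those with 0 mM, 23174 in undifferentiated cells with 20 mM and 22131 in those with 0 mM, lowest in the first group like DNMT3B. The patterns most like that of UHRF1 were those of the hydroxylase CYP7B1 (0.9996), the peptide transporter SLC15A2 (0.996) and ANKRD13D (0.993). CYP7B1 averaged 224, 117, 41.2 and 24.5 in the same groups. These are descriptions of 8 points that fall into 2 stages and share their arrays, and each gene was picked as the nearest of 14072.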

How the data were processed

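The deposited table holds log10 array signals: per the submitters' processing notes RMA was used, but as deposited the values run from -1.46 to 4.61 and every array's mean signal, trimmed by 2% at each end, is 500, which RMA does not give. They were multiplied to the log2 scale and not normalised further, and linear signals are their powers. Values are rounded to 0.01 in log10, or 0.03 in log2. Median signals were 102 in embryoid bodies with ethanol, 85.1 in those without it, 74.1 to 79.4 in undifferentiated cells with ethanol and 69.2 to 70.8 in those without it. Precision is limited by there being 2 arrays a group.

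Probe sets took their genes from GEO's platform annotation: 41091 named 1 gene, 1801 several and 11721 none, and 62 were controls. Genes entered the test if their signal exceeded the array median on 2 or more arrays, and 14072 did. A gene dim elsewhere could enter through 1 group, but the main sets of the 10 genes were above the median on all 8 arrays. With limma 3.58.1 in R 4.3.3, the fit had 1 mean per group over the 8 arrays and 5 contrasts, with 1.81 prior degrees of freedom beside the 4 residual ones. Probe sets had a fit of their own. The fit was tested on simulated data. The 10 genes and the 10 other lists were chosen with earlier results of these data known. Of the 124 listed genes, 112 were tested and 115 had an own probe set. Named in the text are all 10 genes, up to 4 genes per list with the smallest p in a contrast, and the 3 genes most like DNMT3B and UHRF1. Alternatives were other filters, probe set rules, normalisations and variance models, a replicate block, a fit to 4 arrays and leaving out each array. Python 3.11.15 and matplotlib 3.10.9 drew the figures.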

Additional observations from a re-analysis of the deposited data

How the results depend on the processing

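Over the 10 genes and 5 contrasts, 50 values were recomputed 895 times, and 790 kept their direction and side of the threshold. A call was lost 42 times and gained 19 times, and the sign turned 44 times, 3 of them for a called value. Median centring moved the median gene by -0.42 and -0.28 in the stage contrasts at 20 and 0 mM, by -0.27 and -0.13 with ethanol in embryoid bodies and undifferentiated cells, and by -0.13 in their difference. Quantile normalisation moved it by -0.15 in both stage contrasts. TET2 kept its calls between the stages wherever it was tested, and UHRF1 lost its calls with median centring only. The stricter signal filter, the mean of probe sets and the probe set of highest SD left TET2 untested.

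The called values that turned were those of TET1, with the probe set of highest SD (0.56 at 20 mM and 0.61 at 0 mM) and with the mean of its probe sets at 0 mM (0.11). The cause was not tested. The other turned values had no call in the main setting. With median centring they were, for embryoid bodies against undifferentiated cells, -0.40 for TDG at 20 mM and, at 0 mM, -0.25 for DNMT3A, -0.25 for DNMT3B, -0.13 for KDM2B and -0.12 for TET3. With ethanol they were -0.15 for DNMT1, -0.20 for TDG and -0.033 for UHRF1 in embryoid bodies, -0.066 each for DNMT3B, KDM2B and TET3 in undifferentiated cells, and -0.033 for TDG, -0.033 for TET2 and -0.066 for UHRF1 in the difference. Quantile normalisation gave 0.010 for DNMT1 and 0.024 for TDG at 0 mM, 0.042 for DNMT3B at 20 mM and 0.0093 for TET1 with ethanol in undifferentiated cells. Cyclic loess gave 0.0096 for DNMT1 and 0.020 for TDG at 0 mM, 0.019 for DNMT1 and 0.17 for DNMT3B at 20 mM, and 0.0094 for DNMT1 in the difference. The mean of probe sets gave -0.18 for DNMT3A and 0.075 for TDG at 0 mM and 0.055 for TET3 with ethanol in embryoid bodies. The probe set of highest SD gave -0.48 for DNMT3A and 0.23 for TDG at 0 mM and -0.033 for TDG with ethanol in embryoid bodies. Leaving out 1 array gave -0.25 to 0.050 for DNMT1 at 0 mM, -0.033 to 0.27 for DNMT1 with ethanol in embryoid bodies and -0.22 to 0.083 in the difference, and -0.050 to 0.083 for TDG at 20 mM. With ethanol in undifferentiated cells it gave -0.18 to 0.050 for HELLS, -0.10 to 0.033 for TDG, -0.18 to 0.15 for TET1, -0.017 to 0.45 for TET2 and -0.066 to 0.20 for TET3, and -0.13 to 0.33 for TET2 in the difference.

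Of the 10 genes, 2 were called higher at each dose in the main setting, against 1 at each dose with the filter at the 75th percentile, which left TET2 out of the test, 1 with the mean of probe sets, 1 with the probe set of highest SD, 1 with median centring and, at 0 mM, 4 with cyclic loess and 3 each with quantile normalisation and with the trended and robust variance. Called lower were 4 at 20 mM and 2 at 0 mM, against 2 and 1 with no filter, 1 and 0 with the mean of probe sets, 1 and 1 with the probe set of highest SD, 1 and 1 with quantile normalisation, 8 and 6 with median centring, 1 and 1 with cyclic loess, and, at 20 mM, 1 in a fit to 4 arrays, 3 without _x_at and _s_at probe sets, and 5 each with the filter at the 75th percentile and with the trended and robust variance. Leaving out 1 array gave 2 to 3 at 20 mM and 1 to 2 at 0 mM. Without _x_at and _s_at probe sets, KDM2B, DNMT1, DNMT3B and TDG had no probe set left and were not tested. With the probe set of highest SD, HELLS and TET3 were not tested either, like TET2. Calls absent for these genes in these settings are therefore missing tests. With ethanol in embryoid bodies, 1 was called lower with the filter at the 75th percentile, 4 were with median centring, and 1 was called higher and 1 lower with the trended and robust variance.

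Over all tested genes, ethanol in embryoid bodies gave 10 calls, against 959 with the trended and robust variance, 477 with the filter at the 75th percentile, 62 with quantile normalisation and 0 with a replicate block. Median centring gave 172 higher and 3708 lower. It gave 2269 higher and 6822 lower between the stages at 20 mM, and 2506 and 5814 at 0 mM, against 4113 and 3810, and 3946 and 3478, in the main setting. Deviations of like-lettered arrays correlated at -0.03 to 0.05, so the letters A and B showed no shared deviation. Whether like-lettered arrays were handled together cannot be told from these values. With a replicate block, DNMT3B was called lower at 20 mM (-0.22, adjusted p = 0.0436), KDM2B was not (-0.20, adjusted p = 0.0542), and no other call among the 10 genes changed.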
